A study of Mus musculus with 2 samples.

Results

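The 90 windows of 1 Mb in which a mouse methylation array carries the most groups of neighbouring probes were examined for DNA methylation differences between birth and weaning in the hypothalamus. Non-control probes on the autosomes were joined wherever the gap between them was at most 500 bp. Each resulting group of 2 or more probes is called a run here. Every run was assigned by its start to a fixed window of 1 Mb, and windows holding 30 or more runs were kept. They made up 90 of 2066 autosomal windows with a run (4.36%) and held 3467 of 18435 autosomal runs (18.8%). The choice used probe positions alone and no measured value.

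Hypothalamic DNA of female mice at postnatal day 21 (P21) was hybridised together with DNA of female newborns (P0, day 0) on 2 arrays, called A and B. All animals were non-agouti and of a mixed C57BL/6J and C3H/HeJ background, per the labels. On array A the red dye carried P0 and on array B it carried P21, so a dye effect cancels in the mean of both; the 2 arrays share a slide. The number of animals behind each DNA is not given in the sources used here, and every p-value below reflects array-to-array spread alone. DNA of whole tissue mixes all cell types of the hypothalamus, and a change within cells cannot be told apart from a change in the cell mixture.

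Methylated cytosine in mammals sits mostly in the dinucleotide CpG. CpGs are depleted from most of the genome and are concentrated in CpG islands, which lie at many promoters and cluster in GC-rich, gene-dense parts of chromosomes. The suckling period is a time of glial production and synapse formation in the rodent brain, and neuronal methylation is still being laid down. The assay cuts DNA at CCCGGG with SmaI, which is blocked by methylation, and then with XmaI, which cuts the remaining methylated copies and leaves ends that accept an adaptor. Fragments whose ends were methylated are therefore amplified, and a high ratio of P21 over P0 means more of such product at P21. It is no methylation percentage.

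The dense windows lay on 14 of 19 autosomes. Chromosome 4 held 15 of them, chromosome 11 held 14, chromosome 5 held 11 and chromosome 2 held 9, while chromosomes 1, 6, 9, 14 and 16 held 0. They tended to be neighbours: 60 of the 90 touched another dense window, forming 23 stretches, and 30 stood alone. The longest stretch covered 6 windows on chromosome 11, with positions 115000001 to 121000000 of build mm8, which all coordinates here refer to. Of the dense windows 22 (24.4%) ended within 10 Mb of the last probe of their chromosome, against 117 of 1115 other windows with at least 5 tested runs. The number of runs in a dense window ranged from 30 to 77, with a median of 38. Of the 3467 runs, 3458 kept at least 2 probes after spots flagged as outliers were left out, and these were tested.

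Averaged over all their runs, the dense windows lay within about 0.01 log2 units of the rest of the autosomes. The mean log2 ratio of P21 over P0 was 0.032 (array A) and 0.0012 (array B) in dense windows, and 0.043 and 0.0092 in the other 14909 tested autosomal runs. The difference, dense minus rest, was -0.0105 and -0.0080 on arrays A and B, or -0.0093 ± 0.0018 (SD, n = 2). With 2 arrays an exact sign test cannot go below p = 0.5, so no p is given. The direction was not kept in every processing: the difference was 0.00083 with gaps of at most 1000 bp, 0.0050 with gaps of at most 250 bp, and 0.026 with normexp background correction and no loess. It was -0.0140 without the window of highest mean, on chromosome 8.

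Higher signal at P21 was found in 299 of the 3458 dense runs (8.65%, Wilson 95% interval 7.76 to 9.63%) by limma at a Benjamini-Hochberg adjusted p under 0.05. Among all 18761 tested runs the share was 7.65%, and in the rest of the autosomes it was 7.58% (7.17 to 8.02%). Lower signal was found in 161 dense runs (4.66%, 4.0 to 5.41%), against 3.99% of all tested runs and 3.88% of the rest. Both shares in dense windows were thus close to the background and 1.07 and 0.78 percentage points above the rest. These intervals cover counting error only, and runs of 1 window share their array and local neighbourhood. Of the called runs, 65.0% were higher at P21 in dense windows and 66.2% elsewhere. That balance in dense windows moved to 395 higher and 343 lower with trended, robust variances (53.5% higher), to 348 and 285 where all signals had to be well above background (55.0%), to 214 and 68 with medians over probes (75.9%) and to 58 and 0 with normexp and no loess.

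A rule of size was set beside limma, which asked for a 2-fold change or more in the mean and for 1.5-fold in that direction on both arrays. This rule was met by 159 dense runs with higher and 25 with lower signal at P21, or 4.6% and 0.72%. Among all tested runs the shares were 3.71% and 0.501%. When the ratios were read as red over green, so that dye and not age was compared, 2 dense runs met the rule, against 0.0426% of all tested runs.

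Called gains in dense windows were larger than called losses, as they were elsewhere. Leaving out 7 called runs whose dimmer age was below the detection flag at all probes of both arrays, the median log2 ratio was 1.04 over 297 higher runs and -0.73 over 156 lower ones. At least 2-fold was reached by 157 of the former and 25 of the latter, and at least 4-fold by 24 and 0. In the rest of the autosomes, with no such run left out, the medians were 0.97 and -0.70, and 536 higher and 71 lower runs reached 2-fold and 91 and 1 reached 4-fold. Runs of 2 probes made up 46 of the 161 lower and 25 of the 299 higher calls in dense windows, and 166 of 578 and 79 of 1130 elsewhere.

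**Figure D1:**
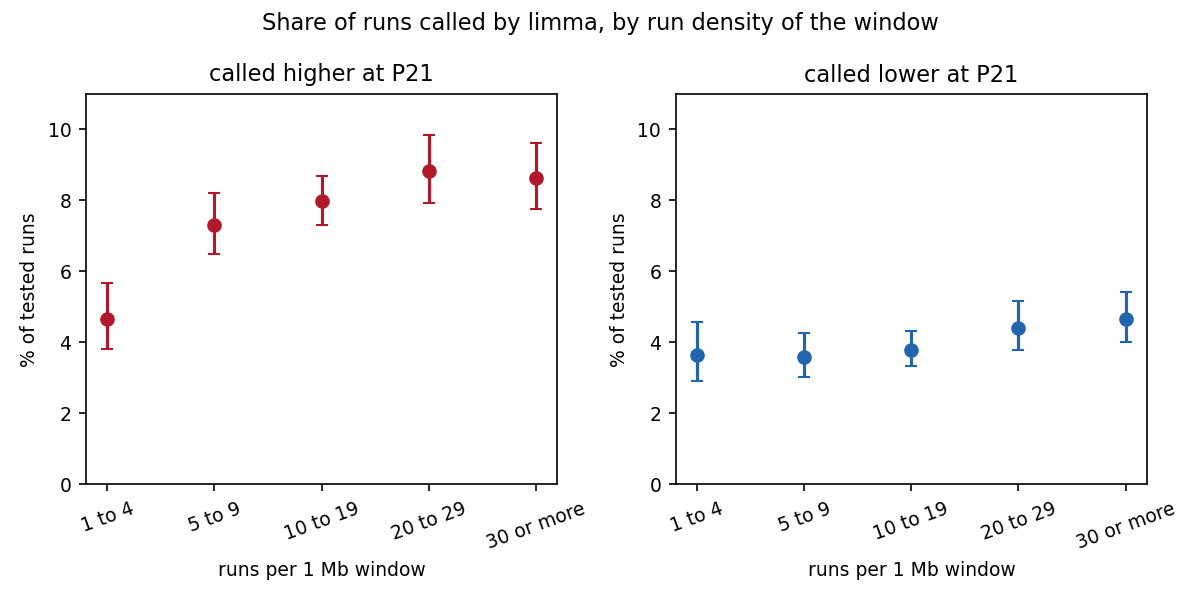
Percent of tested autosomal runs called higher (left) or lower (right) at P21 by limma, against the number of runs in their 1 Mb window; bars are Wilson 95% intervals for counting error. The share called higher is 4.67% in windows of 1 to 4 runs and between 7.31 and 8.84% in the denser classes, ending at 8.65% in windows of 30 or more.

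The share called higher was lowest in the sparsest windows, as the plot of calls by run density shows. In windows of 1 to 4 runs 4.67% of 1972 runs were called higher, in windows of 5 to 9 runs 7.31% of 3583, in windows of 10 to 19 runs 7.97% of 5894 and in windows of 20 to 29 runs 8.84% of 3460. The intervals of the 2 densest classes overlap over most of their length. Calls of lower signal made up 3.65%, 3.6%, 3.8% and 4.42% of runs in these classes and 4.66% in dense windows, so that they differed little at the sparse end and were more frequent in the densest classes. Brightness moved along with density. The median of the mean log2 intensity over both ages was 8.83 in the sparsest class and 10.2 in the dense windows. The share of P21 probes well above background on array A was 90.2% in the former and 96.4% in the latter. The part of brightness in these shares was not tested. Just inside the limit, 12 windows with 30 runs had 32 of 359 runs called higher and 13 lower. Just outside it, 7 windows with 29 runs had 14 of 203 called higher and 13 lower.

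Runs in dense windows were longer than elsewhere. Over 4 probes were kept in 29.4% of them, against 21.0% in the rest of the autosomes, and exactly 4 in 43.0% against 51.0%. The median span was 664 bp against 599 bp. Within runs of 4 probes, which were the most numerous class, the difference in mean log2 ratio was -0.038 (array A) and -0.017 (array B) (1486 dense runs, 7610 elsewhere). Within runs of 5 to 8 probes it was -0.032 and -0.024. In runs of over 8 probes the sign turned on both arrays, to 0.052 and 0.047, and 39 of 271 dense runs (14.4%) were called higher against 91 of 865 elsewhere. Runs of 2 probes had differences of opposite sign on the 2 arrays, 0.040 and -0.016. For runs of 3 probes both differences were positive but small, at 0.018 and 0.0011 (460 dense runs, 2216 elsewhere).

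Tested autosomal runs were also split into 3 equal classes by brightness. In the bright class the dense windows were lower than the rest, with differences of -0.048 and -0.033 on arrays A and B, although 9.34% of their runs were called higher against 8.41% elsewhere. In the middle class the differences were -0.024 and -0.038, and lower calls made up 5.45% of dense runs against 3.29%. Higher calls there were 9.87% against 10.4%. In the dim class the arrays differed in sign, with 0.029 and -0.0067, while 6.18% of dense runs were called higher against 4.12% elsewhere and 7.12% lower against 6.95%.

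**Figure D2:**
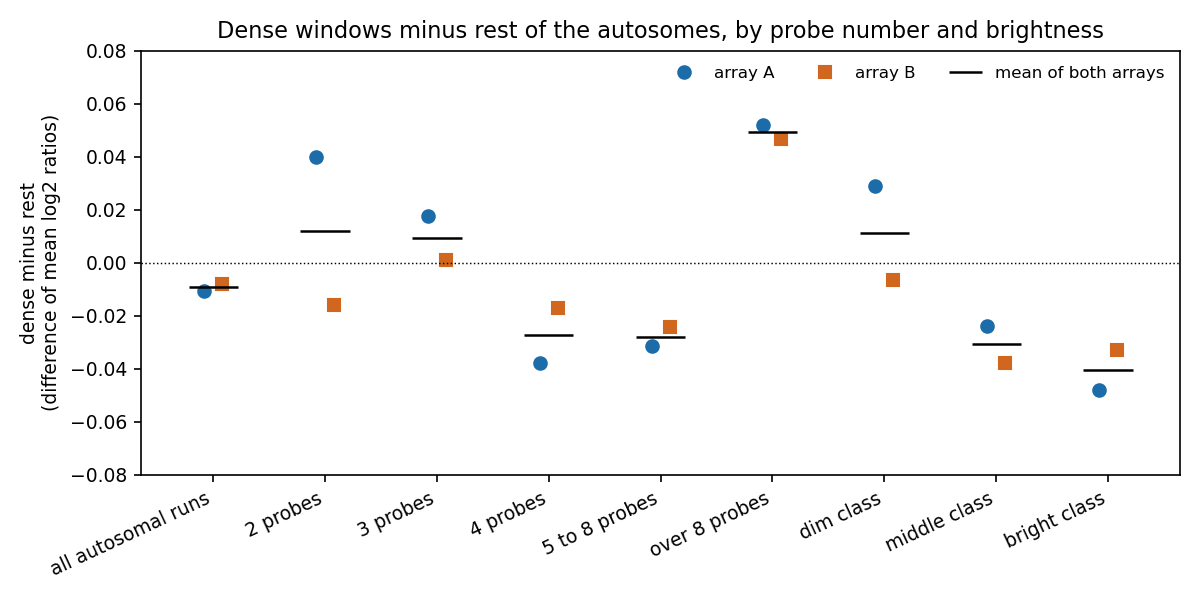
Mean log2 ratio (P21 over P0) of runs in dense windows minus that of all other autosomal runs, for each array and their mean (black line), for all runs, for 5 classes of probe number and for 3 classes of brightness. All values lie between -0.048 and 0.052, and runs of over 8 probes are the class with a positive difference of similar size on both arrays (0.052 and 0.047).

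Seen chromosome by chromosome, no common direction appeared. Dense windows lay above the rest of their own chromosome on both arrays for 4 chromosomes (7, 8, 17 and 19) and below it on both for 6 (2, 5, 12, 13, 15 and 18). The arrays disagreed in sign for the other 4. Chromosomes 13 and 18 held 1 dense window each. Chromosomes 7, 8 and 19 each held 1 window with a high mean (0.29, 0.38 and 0.24), which weighs in their differences. On chromosome 8, 8.0% of the runs in the other dense windows were called higher, against 9.62% in the rest of that chromosome. On chromosome 5, whose 11 dense windows held 443 tested runs, the difference was -0.089 and -0.059 on arrays A and B, and 7.22% of dense runs were called lower against 3.75% of the other runs of the chromosome. On chromosome 17, with 7 windows and 256 tested runs, it was 0.033 and 0.055.

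The window means covered a narrow range around 0. They ran from -0.20 to 0.38, with a median of -0.0065 and quartiles of -0.043 and 0.062. Both arrays were positive in 32 windows, both negative in 34, and of opposite sign in 24. Across the 90 windows the 2 arrays correlated with r = 0.800 (rho 0.668), where the points share the same arrays and slide processing and no p is given. The SD between window means was 0.10. The median SD among the single runs inside a window was 0.45; a mean over many runs spreads less than single runs do, so these SDs are not comparable. A window chosen for many runs has more runs that can be called. Of the 90 dense windows 67 held both higher and lower calls and 0 held no called run, with medians of 3 higher and 1 lower. Of 145 other windows with 20 or more tested runs 74 held both kinds and 8 no call, with medians of 2 and 1. Calls of higher signal outnumbered lower ones in 59 dense windows, the opposite held in 22, and 9 had equal numbers. Among the 145 other windows these counts were 86, 32 and 27.

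**Figure D3:**
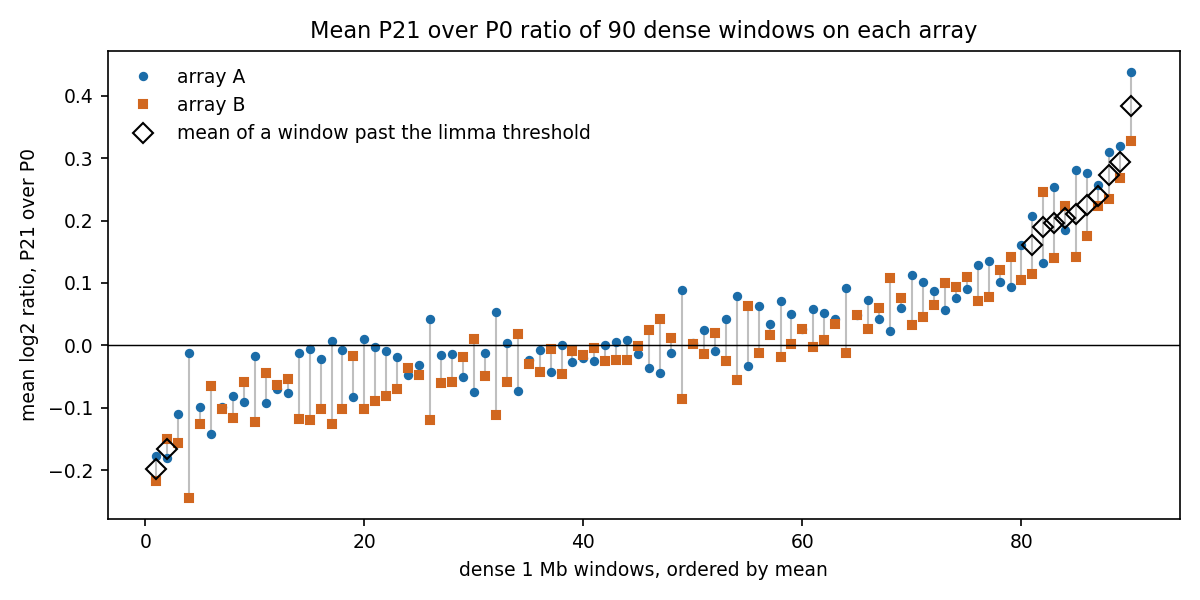
Mean log2 ratio of P21 over P0 in each of the 90 dense windows on array A (circles) and array B (squares), ordered by the mean of both; diamonds mark the means of windows past the limma threshold. The means run from -0.20 to 0.38, and 10 windows at the upper and 2 at the lower end are marked.

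Window means were tested with limma over all 1205 autosomal windows with at least 5 tested runs. Of the 90 dense windows 10 were called higher at P21 (11.1%), against 20.4% of all windows tested. Lower means were called in 2 (2.22%), against 9.54%. At an unadjusted limma p under 0.05 there were 15 of the 90, in either direction. Of 1115 other windows 443 passed that limit, and so did 44 of the 145 among them with at least 20 tested runs. The SD between window means was 0.10 in dense windows and 0.17 in all others tested. Of windows closer in density, 17.9% of 145 with at least 20 tested runs were called higher and 4.83% lower. The test pools 1 spread over all windows (SD 0.086). Its prior degrees of freedom, the weight given to that pooled spread, were infinite. A window's own SD between arrays therefore did not enter its p. The arrays differed less in dense windows (median SD 0.034) than in all others (0.052). In the 145 others with at least 20 tested runs the median SD was also 0.034. With means weighted by their number of runs, 20 dense windows were called higher and 8 lower. Such weights give a smaller error to windows of many runs, for which these windows were chosen. No share over all windows is given for that fit. With normexp and no loess the counts were 0 and 0.

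The window with the highest mean lay on chromosome 8 from 123000001 to 124000000. Its 44 runs had a mean log2 ratio of 0.44 on array A and 0.33 on array B, or 0.38 ± 0.078 (SD, n = 2; limma adjusted p = 1.26e-08). Of these runs 13 were called higher (29.5%) and 1 lower, and the median run was at 0.29. The called runs were spread from 12.9 kb to 974.8 kb after the start of the window. The highest, from 123390622 to 123392089 with 8 probes, had 2.21 on array A and 2.10 on array B. A run of 4 probes from 123012943 to 123013554 had 1.87 and 2.11, and one of 8 probes from 123301523 to 123303392 had 1.94 and 1.84. Next to each other stood 2 short runs of 2 probes each, from 123568754 to 123568907 (1.48 and 1.18) and from 123569486 to 123569669 (2.14 and 1.74). The single lower run, from 123556246 to 123556761, was at -0.54 and -0.51, 12.0 kb before them. Without its highest run the window kept a mean of 0.34 (limma adjusted p = 5.27e-07). The adjusted p was 0.0132 when the arrays were centred on the rest of the autosomes, 0.0249 after normexp and loess and 0.980 after normexp without loess, while the mean stayed between 0.30 and 0.40 in these and the other settings run on both arrays. The prior degrees of freedom, infinite in the main fit, were 3.70 in the first 2 of these settings and 38.25 with normexp without loess. The other 6 dense windows of chromosome 8 had 18 of 225 runs called higher (8.0%).

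The window on chromosome 7 from 79000001 to 80000000 came second, with 0.32 and 0.27 on arrays A and B (limma adjusted p = 2.46e-05). Here the gains were bunched. Of 6 runs called higher among 30, 5 lay between 371 kb and 451 kb after the window's start. They were led by neighbouring runs from 79451426 to 79452273 (2.42 and 1.90) and from 79445914 to 79446410 (2.04 and 2.06). The median run of this window was at 0.089.

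The remaining windows with high means had 0.27 ± 0.053 on chromosome 2 from 167000001 to 168000000 (10 of 38 runs called higher), 0.24 ± 0.024 on chromosome 19 from 45000001 to 46000000 (5 of 41), and 0.23 ± 0.072 on chromosome 4 from 125000001 to 126000000 (6 of 30). Outside the naming rule, 5 more windows passed the threshold and are listed after their values were seen. They start on chromosome 11 at 102000001 (0.21), chromosome 4 at 139000001 (0.20) and 147000001 (0.20), chromosome 17 at 28000001 (0.19) and chromosome 2 at 164000001 (0.16). Over all 10 windows limma adjusted p ran from 1.26e-08 to 0.0315. In the 9 other than the chromosome 8 window the median run lay between -0.0098 and 0.12, so that their means rested on part of the runs. Together the 10 windows held 73 of the 299 runs called higher (24.4%), among 371 runs tested. With arrays centred on the rest of the autosomes 6 of the 10 still passed, and with normexp and loess also 6.

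The lowest mean was that of the window on chromosome 11 from 119000001 to 120000000, with -0.18 (array A) and -0.22 (array B) (-0.20 ± 0.028, SD, n = 2; limma adjusted p = 0.00636). Of its 36 runs 7 were called lower (19.4%) and 1 higher. On both arrays 22 runs were negative and 4 positive. The called decreases were modest, from -0.55 to -0.77, and 2 of them were neighbours, from 119731740 to 119732008 and from 119732566 to 119733250. The window belongs to the longest stretch of 6 dense windows, in which 27 of 246 runs were called higher and 14 lower.

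The second window with a lower mean was on chromosome 10 from 80000001 to 81000000, with -0.18 and -0.15 (limma adjusted p = 0.0261). It held 58 runs, a number exceeded by 1 other dense window. Of these, 38 were negative on both arrays and 6 positive, and the median run was at -0.19. Calls numbered 6 lower and 3 higher. Neither of these decreases passed with normexp and loess (limma adjusted p = 0.0677 on chromosome 11 and 0.0772 on chromosome 10), and neither did with normexp alone. The chromosome 10 window also missed the threshold where all signals had to be well above background (0.0501). The 3 next lowest means did not pass: -0.13 on chromosome 2 from 156000001 to 157000000 (limma adjusted p = 0.0858), -0.13 on chromosome 18 from 75000001 to 76000000 (0.101) and -0.11 on chromosome 5 from 124000001 to 125000000 (0.161). They did pass in 7, 4 and 2 of 20 other settings, respectively, single arrays without a test included. One of these settings left out the highest run, which can only lower a mean. Others were the weighted fit and the fit on dense windows alone, which were chosen after seeing the data. Without its highest run the chromosome 2 window had a mean of -0.223, and the chromosome 11 window, treated alike, had -0.219. On chromosome 18 array B alone was clearly negative, with -0.013 and -0.24 on arrays A and B.

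The densest window of all, with 77 runs, lay on chromosome 10 from 79000001 to 80000000, next to the lowered one. Its mean was 0.0052 (array A) and -0.023 (array B), and 6 of its runs were called higher and 4 lower. Among the gains were 3 runs of 8 probes, the first and last 62.0 kb apart, from 79284530 to 79286009 (2.04 on array A and 1.51 on array B), from 79320396 to 79322684 (1.44 and 1.32) and from 79347984 to 79349646 (1.83 and 1.78). A decrease from 79336969 to 79337787 (-0.50 and -0.90) lay between the last 2 of these. The other windows with the most runs also had means that did not pass. These were chromosome 4 at 140000001 (58 runs, 0.0017, with 0.089 (array A) and -0.085 (array B)), chromosome 5 at 115000001 (57 runs, -0.098) and chromosome 4 at 153000001 (56 runs, 0.074). The mean of the chromosome 4 window at 140000001 turned negative in several settings, so its sign is not settled.

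**Figure D4:**
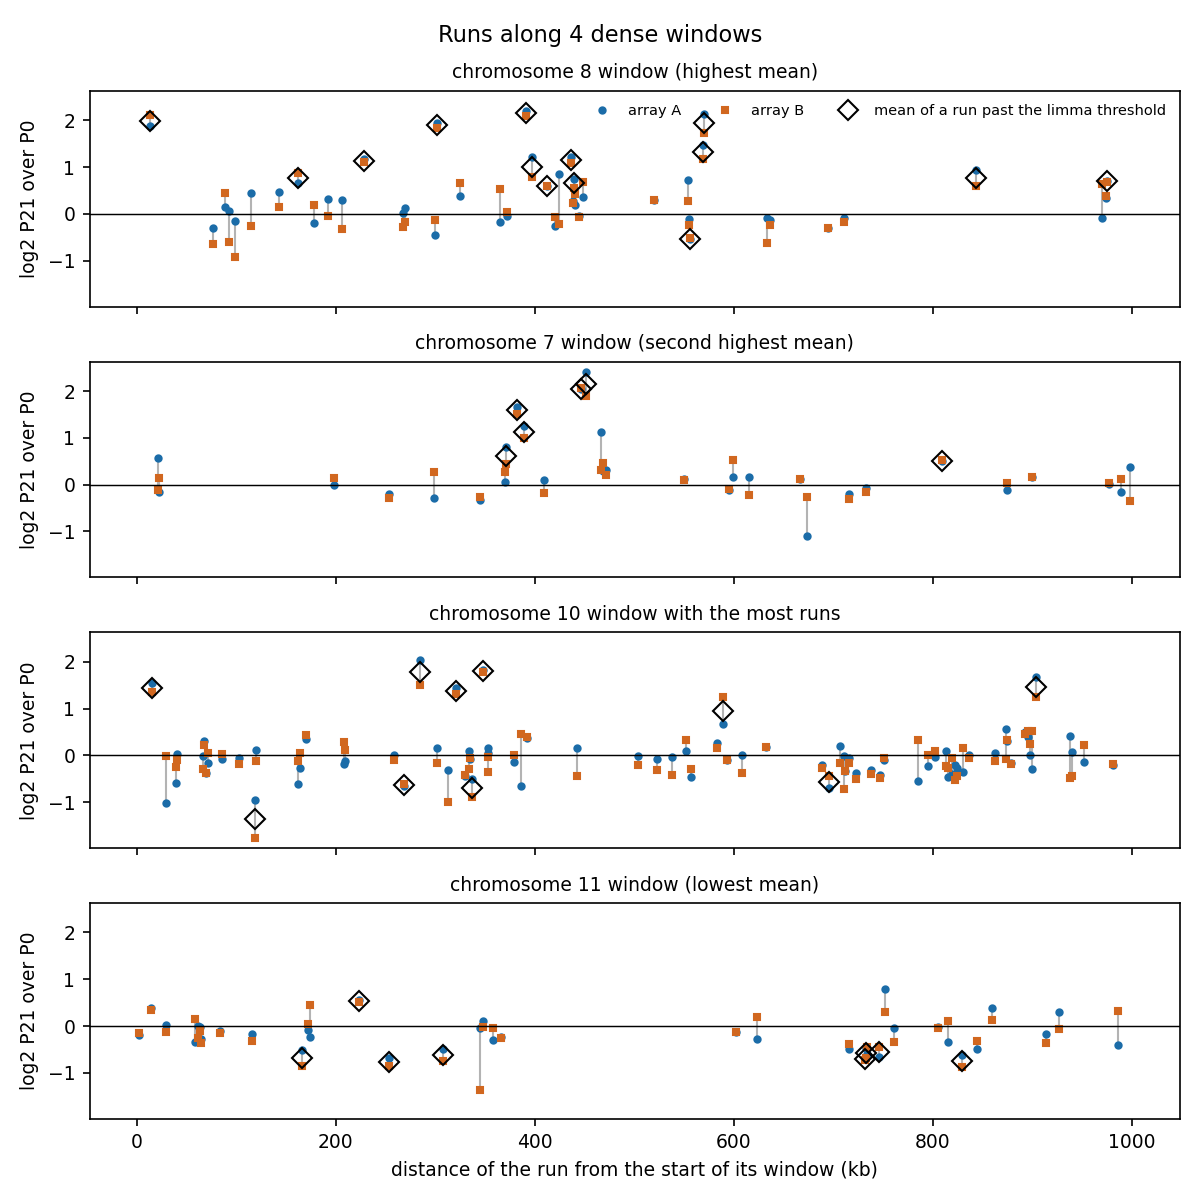
Log2 ratio of P21 over P0 of every tested run against its distance in kb from the start of its window, on array A (circles) and array B (squares), for 4 dense windows; diamonds mark means of runs past the limma threshold. The chromosome 8 window has 13 raised runs along its length, the chromosome 7 window has 5 of 6 between 371 and 451 kb, the chromosome 10 window has 6 raised and 4 lowered runs, and the chromosome 11 window has 7 lowered ones.

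Neighbouring runs were most alike at the shortest gaps. For dense runs 501 to 1000 bp apart, log2 ratios correlated with r = 0.469 over 452 pairs. When 1 run was read on array A and the other on array B, r was 0.388. The corresponding values in the rest of the autosomes were 0.494 over 1226 pairs and 0.377. At 1001 to 2000 bp r was 0.139 over 87 dense pairs and 0.219 over 160 pairs elsewhere. At 2001 to 5000 bp r had fallen to 0.0518 over 391 dense pairs and 0.111 over 635 pairs elsewhere. At 5001 to 10000 bp it was 0.0760 over 501 dense pairs and 0.119 over 904 elsewhere, and at 10001 to 20000 bp to 0.0066 over 670 dense pairs and 0.0125 over 1428. Pairs share runs and arrays, so no p is given. Of 293 dense runs called higher with a next run in the same window, 41 were followed by another called higher, and in the rest of the autosomes 141 of 1017 were (13.9%). At 501 to 1000 bp these were 15 of 38 and 31 of 78, and at 5001 to 10000 bp 10 of 47 (21.3%) and 20 of 85 (23.5%). At 1001 to 2000 bp they were 0 of 3 and 0 of 8. Of all runs that followed another at 501 to 1000 bp, 8.19% in dense windows and 5.95% elsewhere were called higher. At 5001 to 10000 bp these shares were 9.58% and 8.52%. The median gap to the next run was 13053 bp in dense windows and 41399 bp elsewhere. Means of adjoining dense windows correlated with r = -0.126 over 37 pairs.

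The 10 most strongly raised runs of the dense windows lay in 9 windows on 6 chromosomes, and their log2 ratios lay between 2.44 and 3.12, with limma adjusted p between 0.00022 and 0.000506. They were chosen for high ratios of the same sign on both arrays, and in each of them all probes were higher at P21 on both. The top run, on chromosome 10 from 127123975 to 127124599, had 3.52 on array A and 2.73 on array B, or 8.71-fold between P21 and P0. Its P0 log2 intensity was 9.50 and 9.77, and its P21 intensity 13.0 and 12.5. Signal was thus well above background at both ages. Chromosome 15 held the next 2. The run from 85351317 to 85352116 had 2.99 and 3.23. The run from 98603142 to 98603583 had 3.23 and 3.01, but it was dim at P0 (log2 intensity 4.83 and 5.21), with 2 of its 3 probes well above background there. With normexp and loess it fell to 0.94 and no longer passed (limma adjusted p = 0.139).

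Chromosome 11 held 3 of the 10. The run from 102557435 to 102557784 had 2.86 on both arrays, a 7.24-fold gain. In the same window, 102 kb before it, the run from 102454739 to 102455320 had 2.30 and 2.58. The run from 118425467 to 118425858 had 2.74 and 2.47. The runs with 8 probes among the 10 were those on chromosome 5 from 122469908 to 122470632 (2.64 and 2.53) and on chromosome 8 from 87596928 to 87598914 (2.50 and 2.42). On chromosome 2 the run from 167850680 to 167850974 (3.0 on array A and 2.29 on array B) had 2 probes, and lost its call with normexp and loess (limma adjusted p = 0.0988). The other chromosome 2 run, from 156466430 to 156466941 (2.61 and 2.52), was the single raised run of a window whose mean was negative.

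The 8 most strongly lowered runs were smaller in size, with log2 ratios from -1.65 to -1.33, and 6 of the 8 held 2 probes. The strongest, on chromosome 11 from 98626325 to 98626653, had -1.50 on array A and -1.79 on array B over 4 probes, 3.13-fold between P0 and P21. On chromosome 15 the run from 98694133 to 98695522 had -1.46 and -1.61 over 4 probes, with a P0 log2 intensity of 10.6 and 10.8. It lay 90.5 kb after the dim raised run of chromosome 15, in the same window. The other 6 were on chromosome 8 (73114781 to 73115099, -1.61), chromosome 11 (97892949 to 97893393, -1.45), chromosome 5 (120843855 to 120844011, -1.41), chromosome 10 (79118513 to 79118930, -1.36), chromosome 19 (4149100 to 4149697, -1.35) and chromosome 2 (156768441 to 156768738, -1.33). At P21, 1 of the 2 probes of the chromosome 19 run was well above background on each array, and 1 of the 2 of the chromosome 8 run on array B. Limma adjusted p ran from 0.000831 to 0.00771. After normexp and loess 5 of the 8 no longer passed, and without loess 0 of 8 did. The run on chromosome 5 lies in the window from 120000001 to 121000000, where 6 of 35 runs were called lower and 2 higher and the mean was -0.041.

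**Figure D5:**
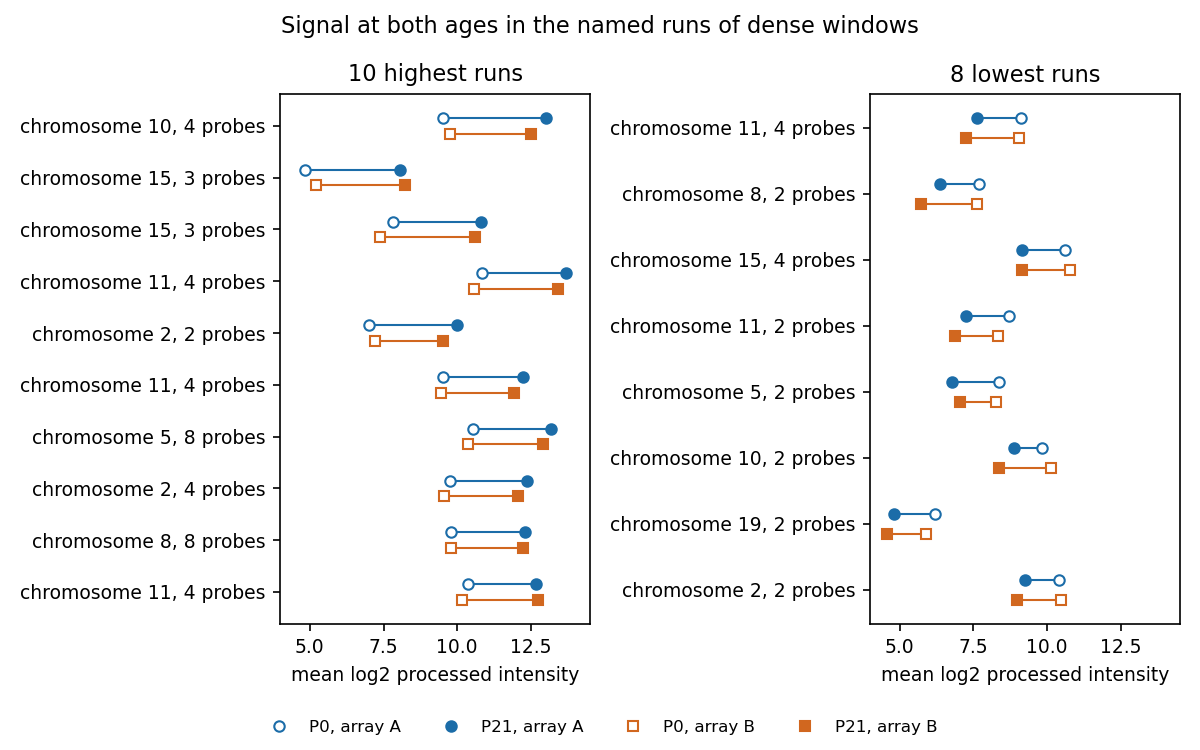
Mean log2 processed intensity of P0 (open) and P21 (filled) on array A (blue circles) and array B (orange squares) for the 10 highest and 8 lowest called runs of the dense windows, each labelled with its chromosome and number of probes. By the rule of choice, P21 lies above P0 on both arrays in all 10 raised runs and below it in all 8 lowered ones. The distances are shorter among the lowered.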

How the data were processed

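Per the file headers, the deposited log10 ratios (red over green) came from signals that were background-subtracted, spatially detrended and linearly dye-normalised, with version 10.5.1.1 of Feature Extraction. Version 9.1.3.1 is given in the submitters' processing notes. Deposited intensity values (processed, median spot and median background) are linear. In the authors' value table the log10 ratios recur in rounded form, with array A turned (r = -1.00, array B 1.00, against red over green). Its column medians are 0. Positions are on mm8, per the file headers; gene and fragment annotation and sequences of that build were not used here, so no run carries a gene name.

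Log10 ratios were converted to log2, array A was turned to P21 over P0, and each array was centred on its median. Control spots and 800 outlier-flagged spots were left out, and 0 spots were saturated; 89726 of 90526 probes remained. Run values are means over probes. Runs (18761 on all chromosomes) and window means were tested with limma 3.58.1 (lmFit, eBayes, no trend) in R 4.3.3, two-sided, Benjamini-Hochberg over all features. Data with 200 changed features were simulated from the spread that limma itself had fitted, so the noise had the form the test assumes. There limma called 86.5% of the changes among 18761 runs and 84.0% among 1205 windows. These shares hold for the data and sizes of change put in. Whether they hold on the 2 measured arrays was not tested. Named items are the 5 windows with most runs, the 5 highest and 5 lowest window means, and the 10 highest and 8 lowest called runs with the same sign on both arrays. Alternatives were normalisation, centring, filters, gaps, window limits and grid, run values and limma settings. The windows, rules and lists were chosen with earlier results of these data known. The 2 arrays limit the precision, and intervals cover counting error only.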

Additional observations from a re-analysis of the deposited data

How the results depend on the processing

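The density-mode centring, the weighted fit, the fit on dense windows alone, the differences in percent and the left-out runs and window were chosen after seeing the data; the cause of the changes below was not tested. The mean difference, dense minus rest (-0.0093; -0.0105 to -0.0080 on single arrays), turned to 0.00083 with gaps of at most 1000 bp, 0.0050 with 250 bp and 0.026 with normexp and no loess. It was -0.015 with loess, -0.014 with normexp and loess, -0.019 with signals well above background, -0.020 in runs of 2 to 4 probes, -0.012 on a grid shifted by 500 kb, -0.0054 and -0.00066 for windows of 25 and 35 or more runs, and -0.0140 without the highest window. Other gaps, run limits, grids and probe filters change how many windows and runs are counted. The counts below therefore have different totals and are no shares. Runs called higher (299) numbered 58 with normexp alone, 452 with 250 bp and 177 with 2 to 4 probes. Runs called lower (161) numbered 246 with loess, 100 with normexp and loess, 0 with normexp alone, 285 well above background, 68 with medians and 343 with trend and robust. The difference in percent called lower (0.779) was 1.75 with loess, 2.15 well above background, 2.63 with trend and robust and -0.013 with normexp alone. By size, higher runs (159) numbered 93 with normexp and loess and 258 with 250 bp. Lower runs (25) numbered 3 with normexp and loess, 2 with normexp alone, 42 with 250 bp, 12 with 1000 bp, 38 in windows of 25 or more, and 26 to 69 on single arrays. Windows called higher (10) and lower (2) numbered 6 and 0 with normexp and loess, and 0 and 0 with normexp alone. Higher windows numbered 20 with 250 bp, 18 at 25 or more runs, 4 on the shifted grid and 6 centred on the rest. They numbered 20 weighted, where windows of many runs get a smaller error, and 16 fitted alone, adjusted over dense windows only. Lower windows numbered 1 well above background, 1 with 1000 bp, 4 at 25 or more runs, 0 on the shifted grid, 5 with 2 to 4 probes, 4 in a fit on windows of 10 or more tested runs, 8 weighted and 8 fitted alone. The mean of the 77-run chromosome 10 window was 0.0052 on array A, -0.023 on array B and 0.0079 with normexp and loess. That of the chromosome 4 window at 140000001 was 0.089 on array A, -0.085 on array B, -0.036 with normexp alone, -0.0066 with medians, -0.021 with 2 to 4 probes, -0.024 centred on the rest and -0.034 without its highest run. Of the 3458 dense runs, 2923 (84.5%) were well above background at all probes in both channels of both arrays. No paired analysis was possible because none is left to add: every ratio already pairs P21 with P0 on 1 array, and the limma tests use those ratios.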
